A study of Homo sapiens with 3 samples.

Results

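The intergenic peaks are the ribosome peaks that the deposited annotation placed in no RefSeq gene, and they were taken as every row whose annotated region begins with the word Intergenic. They numbered 683 of the 46819 peaks in the 3 lists. The vector list held 193 of 11219 peaks, the wild-type DDX3X list 287 of 19920 and the DDX3X G325E list 203 of 15680. Each list came from 1 ribosome profiling library (sequencing of the RNA fragments that ribosomes shield from nuclease) of HEK293T, a human embryonic kidney cell line, although the labels also carry the cell type tag Neuronal. Cells were transfected transiently for 24 h with empty pCDNA3.1 vector, with FLAG-tagged wild-type (WT) DDX3X or with FLAG-tagged DDX3X G325E, a medulloblastoma-associated mutant of this RNA helicase, and endogenous DDX3X was not removed from any of them. Per the labels every culture received harringtonine, which stalls initiating ribosomes, at 2 µg/ml for 90 s and then cycloheximide, which stops elongation, at 100 µg/ml, whereas the study's methods give cycloheximide alone for 5 min. The lists give a position, strand, region and nearest gene for each peak and no height or read count, and the read depth behind each list was not used here. With 1 library per construct the lists give no measure of how much separate cultures vary, and no test between constructs was possible. The 95% intervals below (Wilson's method for shares, Newcombe's for differences) cover the counting of peaks only, and neighbouring peaks are not independent.

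Ribosome footprints come mostly from exons, so a footprint placed between genes often lies in a transcript that the annotation used does not list, or in a second copy of a transcribed sequence. Processed pseudogenes are copies of mRNAs that were reverse transcribed and inserted elsewhere in the genome, and highly expressed genes such as those for ribosomal proteins have left many. Nuclear mitochondrial sequences are stretches of mitochondrial DNA inserted into chromosomes. CpG islands are stretches rich in GC that lie at the start of many genes, and the first exons there are often GC-rich as well.

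The sequences of short peaks, all but the GGTA1P peak from the largest clusters, show what these members look like. The first 3 peaks are each followed by the matching stretch of the transcript that the cluster resembles most, with capitals at the bases where peak and transcript differ, and the others carry no capitals. The clusters are named by the nearest gene in the deposited list. Positions and letters are those of GRCh37.
ZSCAN5A cluster, chr19:56729022-56729043, minus strand: gCCaggccGggcaagccaaggc
RPL13 transcript: gTAaggccCggcaagccaaggc
CXCR4 cluster, chr2:137087047-137087069, minus strand: acaacatccagaaagagtcAacc
UBB transcript: acaacatccagaaagagtcGacc
GGTA1P cluster, chr9:124282585-124282607, minus strand: cagagaggtggaagaccatgCct
HMGB1 transcript: cagagaggtggaagaccatgTct
C17orf112 cluster, chr17:51183251-51183272, plus strand: ttagcaaactcatcactagaca
OR4F3 cluster, chr1:570207-570230, plus strand: taatagaaaacaaccgaaaccaaa
SLIT2 cluster, chr4:20253265-20253288, minus strand: aggagccacccgagccccagcccc
ZRANB1 cluster, chr10:126605469-126605490, minus strand: gcggcggccgagggacccggag
The ZSCAN5A peak differed from RPL13 (a large-subunit ribosomal protein) at 3 bases, the CXCR4 peak from UBB (ubiquitin B) at 1 and the GGTA1P peak from HMGB1 (a chromatin protein) at 1. The C17orf112 peak was identical to MT-CO1 (subunit 1 of cytochrome c oxidase, encoded in the mitochondrial genome) and occurred at 4 places in the genome. The OR4F3 peak lay in a copy of MT-CO3 and occurred exactly at 2 places, of which 1 was the mitochondrial genome. The SLIT2 and ZRANB1 peaks occurred at 1 place only and had a GC content of 79.2% and 86.4%.

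Intergenic peaks made up 1.72% of the vector list (1.5 to 1.98), 1.44% of the wild-type list (1.28 to 1.62) and 1.29% of the G325E list (1.13 to 1.48). The difference between G325E and vector was −0.426 percentage points (G325E minus vector, interval −0.732 to −0.132). The difference between G325E and wild-type was −0.146 points (−0.387 to 0.0994), and that between wild-type and vector −0.280 points (−0.581 to 0.00526), and both intervals include 0. Counting only the intergenic peaks that overlap no gene of the reference annotation, described next, both signs of G325E turned, with shares 0.139 points above vector and 0.164 points above wild-type. Of the 47 G325E peaks so counted, 19 were annotated to a repeat, a kind of row that the other lists lacked. The shares outside genes were not computed without them. The lists differed in the rows they hold, and whether rows were removed from any of them is not given in the sources used here. The G325E list held 290 peaks annotated to a repeat, 57 of them intergenic, and the vector and wild-type lists held 0. Peak numbers ran without a break in G325E, but 1952 of 13171 numbers (14.8%) carry no row in vector and 3099 of 23019 (13.5%) in wild-type. Of the 50 repeat-annotated intergenic G325E peaks that lie between listed peaks of the other lists, 34 (68.0%) fell where the vector numbering skips and 36 (72.0%) where the wild-type numbering skips. For the other intergenic G325E peaks these shares were 35.5% and 26.9%. Without the repeat-annotated peaks the G325E list held 146 intergenic peaks of 15390 (0.949%), and the difference became −0.492 points from wild-type (−0.717 to −0.264) and −0.772 points from vector (−1.07 to −0.492).

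Most intergenic peaks lay inside a gene of a fuller annotation, and for vector and wild-type that gene was mainly a pseudogene. GENCODE release 44, lifted to GRCh37, lists pseudogenes that RefSeq in the deposited annotation left unlisted at these positions. A gene of it overlapped 175 of 193 vector peaks (90.7%), 260 of 287 wild-type peaks (90.6%) and 156 of 203 G325E peaks (76.8%). Over all nuclear peaks of the lists these shares were 96.5%, 96.4% and 93.5%. The shares by kind of gene that follow were not computed over all peaks, so they have no background beside them. Each peak was placed in a single group, pseudogenes before other genes. Pseudogenes of either kind took 140 vector peaks (72.5%, 65.8 to 78.3), 210 wild-type peaks (73.2%, 67.8 to 78.0) and 56 G325E peaks (27.6%, 21.9 to 34.1). Without repeat-annotated peaks the G325E share was 48 of 146 (32.9%, 25.8 to 40.9), so its interval stayed clear of those of the other lists. The peaks lay on the pseudogene's own strand in 138 of 140 vector cases, 203 of 210 wild-type cases and 48 of 56 G325E cases. In G325E the opposite-strand cases were the 8 pseudogene peaks of the IRS4 cluster described below, all annotated to a repeat. Pseudogenes named for mitochondrial genes alone took 49 vector peaks (25.4%, 19.8 to 32.0), 59 wild-type peaks (20.6%, 16.3 to 25.6) and 8 G325E peaks (3.94%, 2.01 to 7.58). Protein-coding genes took 25 vector peaks (13.0%), 31 wild-type peaks (10.8%) and 70 G325E peaks (34.5%). Of these, 21, 22 and 46 lay on the gene's strand. Coding sequence held 13, 12 and 12 of them, and introns 2, 4 and 22. Long non-coding RNAs (lncRNAs) took 8, 16 and 27 peaks, in that order, with 7, 12 and 15 on the lncRNA's strand. No gene was present at 18, 27 and 47.

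**Figure D1:**
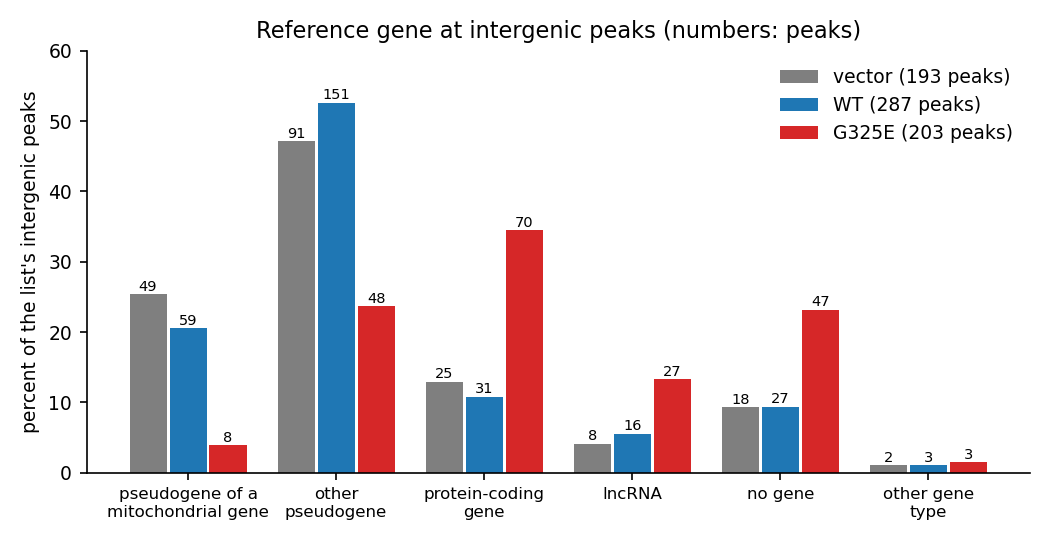
Percent of each list's intergenic peaks (vertical axis) by the kind of GENCODE gene they overlap (horizontal axis), with the number of peaks above each bar. Other pseudogenes are the tallest pair of bars for vector (91 peaks) and wild-type (151), and protein-coding genes the tallest bar for G325E (70).

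The peaks were short and gathered into few places. Their median length was 30 bp for vector, 32 bp for wild-type and 29 bp for G325E, and 110, 153 and 118 of them lay on the plus strand. Joined within 1 kb, the 683 peaks of the 3 lists formed 114 clusters, and joining within 10 kb gave 114 as well. Peaks of all 3 lists were found in 26 clusters, which held 328 peaks, while 33 clusters had peaks of 2 lists and 55 of 1 list. The 8 largest clusters held 228 peaks, which is 33.4% of all, 45.1% of those in vector, 33.1% of those in wild-type and 22.7% of those in G325E. By the group of most of their peaks, 4 clusters lay in pseudogenes that GENCODE names for a mitochondrial gene, 60 in other pseudogenes, 19 in protein-coding genes, 8 in lncRNAs and 18 in no gene.

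**Figure D2:**
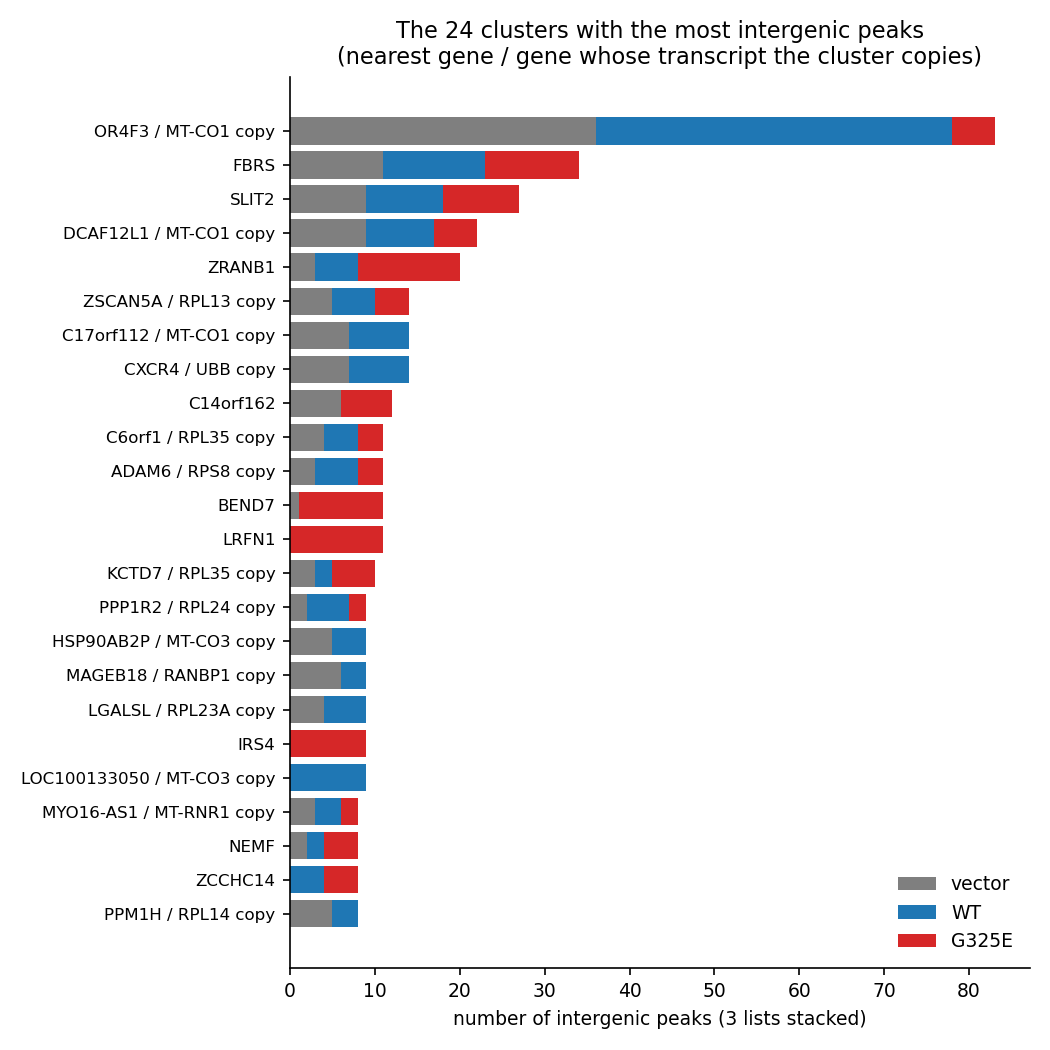
Number of intergenic peaks (horizontal axis, lists stacked) in the 24 clusters with the most, labelled by the nearest gene and, where there is one, by the gene whose transcript the cluster resembles. The OR4F3 cluster has 83 peaks, of which 5 are from G325E, and the LRFN1 and IRS4 clusters consist of G325E peaks alone.

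Copies of mitochondrial genes formed the largest cluster and were scarcer in G325E. The OR4F3 cluster (chr1:566102-570244) had 36 vector, 42 wild-type and 5 G325E peaks over 4143 bp, 51816 bp or more from the start of OR4F3, an olfactory receptor gene. GENCODE places the pseudogenes MTCO1P12, MTCO2P12, MTATP8P1, MTATP6P1 and MTCO3P12 there, and the stretch was 98.5% identical to mitochondrial positions 5552 to 9695 over 4145 aligned bases. The DCAF12L1 cluster (chrX:125605816-125607254), which holds MTCO1P53, had 9 vector, 8 wild-type and 5 G325E peaks. The C17orf112 cluster (chr17:51183180-51183746), in MTCO1P40, had 7 vector, 7 wild-type and 0 G325E peaks. The MYO16-AS1 cluster (chr13:110076476-110076689) had 3 vector, 3 wild-type and 2 G325E peaks, and its 214 bases were identical to the mitochondrial small ribosomal RNA, MT-RNR1. In all, 8 clusters resembled a mitochondrial RNA and held 65 vector peaks (33.7%), 77 wild-type peaks (26.8%) and 12 G325E peaks (5.91%).

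Mitochondrial chromosome peaks themselves carry no annotated region in the lists and are not members. The vector list had 96 of them, the wild-type list 79 and the G325E list 35. In the stretch that the OR4F3 cluster copies they numbered 11, 12 and 0, and none of the 3 lists had a peak in MT-CO1 (0, 0 and 0) although the nuclear MT-CO1 pseudogenes (MTCO1P12, MTCO1P53 and MTCO1P40) held 22 vector, 28 wild-type and 2 G325E peaks. These positions use GENCODE's mitochondrial coordinates, and whether the lists use the same mitochondrial reference is not given in the sources used here. MT-CO1 reads and reads of its nuclear copies cannot be told apart where the sequences are identical. Of the intergenic peaks of at least 20 bp, 43 of 172 in vector (25%), 45 of 252 in wild-type (17.9%) and 8 of 172 in G325E (4.65%) occurred base for base in the mitochondrial genome. Among all other nuclear peaks of that length the shares were 0.380%, 0.220% and 0.127%, also lowest in G325E.

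Processed copies of ribosomal protein genes were the most frequent nuclear group and were present in each list. Ribosomal protein transcripts were the best match of 25 clusters, from 18 genes, with 50 vector, 77 wild-type and 35 G325E peaks, and 15 of the 25 had peaks in all 3 lists. The ZSCAN5A cluster (chr19:56728810-56729368) resembled RPL13 at 85.5% of aligned bases and had 5 vector, 5 wild-type and 4 G325E peaks. RPL35, another large-subunit protein, had 3 such clusters with 10 vector, 9 wild-type and 9 G325E peaks, 95.7% to 96.0% identical to it. The EFNA2 cluster (chr19:1307475-1307611), in RPS15P9, matched RPS15 (a small-subunit protein) at 91.2% and had 1 vector, 2 wild-type and 2 G325E peaks. The LOC731275 cluster (chr1:243138293-243138379) matched RPL41, the smallest ribosomal protein, at 96.6% and had 1 peak in each list. Over all pseudogene clusters that matched a nuclear gene, the median identity was 95.6% (85.5 to 99.6). Of the 25 ribosomal protein clusters 16 had G325E peaks. The copies of RPL23A (4 vector, 10 wild-type), RPL19 (2 and 8) and RPL14 (5 and 3) had 0. So did those of RPS9 (0 and 6), RPS10 (2 and 2), RPL17 (1 and 1) and RPL21 (0 and 2).

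Other nuclear copies matched genes of several families, and the abundance of their mRNAs was not measured. EEF1A1, the translation elongation factor that brings tRNA to the ribosome, was the best match of 7 clusters with 5 vector, 19 wild-type and 1 G325E peaks. The EEF1A1 gene itself had 15, 23 and 0 exon peaks, in that order. The 7 clusters that resembled high mobility group genes (HMGA1, HMGB1, HMGN1 and HMGN2, chromatin proteins, a family picked after its values were seen) had 9 vector, 17 wild-type and 1 G325E peaks. The RLN2 cluster (chr9:5311645-5311713), a copy of HMGN2, had 1 peak in each list. The CXCR4 cluster (chr2:137087047-137087921), in the ubiquitin pseudogene UBBP1, had 7 vector, 7 wild-type and 0 G325E peaks, although UBB itself had 9, 6 and 9 exon peaks. The FGR cluster (chr1:27975942-27976033), a copy of TMA7 (a factor linked to translation machinery), had 1 peak in each list. Of the nuclear genes matched by a list's intergenic clusters, 26 of 27 had exon peaks of their own in the vector list, 34 of 38 in wild-type and 13 of 16 in G325E. The share of all genes with exon peaks was not computed, so these counts have no background beside them. The vector and wild-type counts include MTRNR2L6, whose cluster is also among the 8 that resembled a mitochondrial RNA. For the 3 lists, 60 of 172 (34.9%), 74 of 252 (29.4%) and 32 of 172 (18.6%) intergenic peaks of at least 20 bp occurred exactly at more than 1 place in the genome. Among all other peaks of that length the shares were 12.3%, 9.39% and 6.55%.

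A second kind of member lay in GC-rich sequence without a matching transcript elsewhere. The FBRS cluster (chr16:30670482-30671763) had 11 vector, 12 wild-type and 11 G325E peaks. GENCODE extends FBRS (fibrosin) over it, with 20 of the 34 peaks in coding exons, 14 in non-coding exon sequence and 30 on the strand of FBRS. The SLIT2 cluster (chr4:20253265-20254223) had 9 peaks in each list, 1036 bp or more upstream of the listed start of SLIT2, an axon guidance ligand. Of its 27 peaks 21 lay in non-coding exon sequence of SLIT2 in GENCODE. The ZRANB1 cluster (chr10:126605200-126605997) had 3 vector, 5 wild-type and 12 G325E peaks in a CpG island of 79.1% GC, 24705 bp or more from the start of ZRANB1, a deubiquitinase gene, and 11 of its 20 peaks were in lncRNAs. Those 11 lay partly on the lncRNA's strand and partly on the opposite one. The C14orf162 cluster (chr14:70038994-70040225) had 6 vector, 0 wild-type and 6 G325E peaks. All 12 lay in the coding exon of CCDC177, but only 7 of them on its strand. The wild-type numbering had 0 skipped numbers there. This cluster was singled out after its values were seen.

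CpG islands held 47 vector peaks (24.4%, 18.8 to 30.9), 58 wild-type peaks (20.2%, 16 to 25.2) and 88 G325E peaks (43.3%, 36.7 to 50.2), or 88 of 146 (60.3%) without repeat-annotated peaks. Among intron peaks the CpG island shares were 54.3%, 50.9% and 72.1%. The mean GC content of the 31 nt around a peak's midpoint was 56.2% ± 14.8 (SD) over the 193 peaks of vector, 56.2% ± 13.9 over the 287 of wild-type and 73.2% ± 15 over the 203 peaks of G325E. For all other nuclear peaks it was 62.9% ± 13.3, 62.4% ± 13.5 and 73.2% ± 12.7. Intergenic peaks thus had a lower mean GC content than the rest of the list in vector and wild-type, and the same mean in G325E. Within the other pseudogenes, not named for a mitochondrial gene, the means were 55.1% ± 12.5, 54.9% ± 12.3 and 63.7% ± 12.5, and within protein-coding genes 73.5% ± 12.2, 68.8% ± 12.5 and 79.5% ± 11.9. In pseudogenes of mitochondrial genes the lists were close, at 47.1% ± 10.1, 48.2% ± 9.78 and 46.8% ± 9.44, with 8 peaks in G325E. The part of base composition in the differences between lists was not tested further, and a share standardised to the GC classes of the vector list came to 1.43% for wild-type and 1.41% for G325E, against 1.74% for vector.

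**Figure D3:**
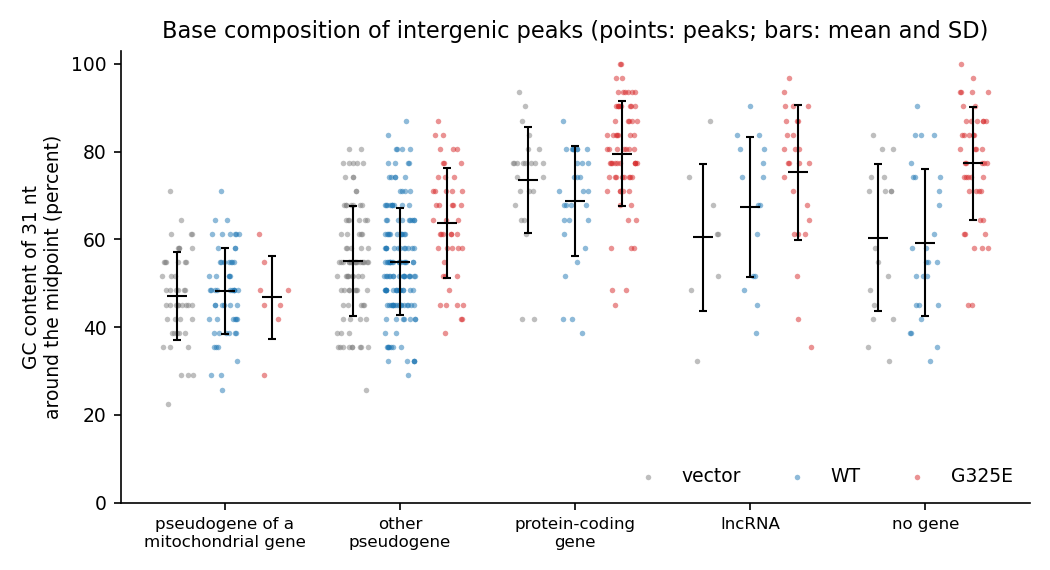
GC content of the 31 nt around the midpoint (vertical axis, percent) of each intergenic peak, by the kind of gene it overlaps (horizontal axis) and by list, with the mean and SD over peaks as bars. The G325E mean lies above those of vector and wild-type in the other pseudogenes, protein-coding genes, lncRNAs and outside genes, and at about the same height in the pseudogenes of mitochondrial genes.

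Peaks of different lists often fell on the same bases. In vector, 152 of 193 intergenic peaks (78.8%, 72.5 to 83.9) shared 1 bp or more with a wild-type peak, where 76.8% of all vector peaks did. Only 63 (32.6%, 26.4 to 39.5) overlapped a G325E peak, against 48.1% of all vector peaks. In wild-type, 149 of 287 (51.9%, 46.1 to 57.6) overlapped a vector peak, against 41.6% of all. The overlap of wild-type with G325E was 72 of 287 (25.1%, 20.4 to 30.4), against 34.9% of all. In G325E, 65 of 203 (32.0%, 26 to 38.7) overlapped a vector peak, against 35.4% of all, and 70 (34.5%, 28.3 to 41.3) a wild-type peak, against 47.3% of all. Without the repeat-annotated peaks, which the other lists lack, these shares of G325E were 44.5% (65 of 146) and 47.3% (69 of 146). Members in pseudogenes of mitochondrial genes overlapped a G325E peak in 8 of 49 vector cases and 8 of 59 wild-type cases, while all 8 of G325E overlapped both other lists. Members in protein-coding genes overlapped a G325E peak in 19 of 25 vector cases and 19 of 31 wild-type cases, while 19 and 16 of the 70 in G325E overlapped vector and wild-type. Requiring the overlapped peak to be intergenic as well left all 6 shares as they were.

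Positions covered by intergenic peaks of all 3 lists at once came to 62 regions and 2428 bases in 26 clusters. The longest was 117 bp, upstream of the listed start of SLIT2 and in its non-coding exon sequence in GENCODE (chr4:20253993-20254109). Next came 81 bp in the TMA7 copy near FGR (chr1:27975948-27976028) and 81 bp in FBRS (chr16:30670872-30670952). The DCAF12L1 cluster held 77 bp (chrX:125606597-125606673) and 57 bp (chrX:125606461-125606517), both in stretches where GENCODE lists no gene, and the MT-RNR1 copy 70 bp (chr13:110076554-110076623). The copies of RPS15, HMGN2 and RPL41 held 70 bp (chr19:1307477-1307546), 63 bp (chr9:5311646-5311708) and 60 bp (chr1:243138293-243138352). The tenth, of 54 bp, lay in the OR4F3 cluster (chr1:569929-569982) and was as long as a region in the RPL36A copy near MC2R (chr18:13919833-13919886).

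Clusters of a single list differed in kind. Wild-type alone had 30 clusters with 73 peaks, 22 of them in other pseudogenes than those named for mitochondrial genes. Its largest were the LOC100133050 cluster in MTATP6P2 and MTCO3P22 (chr5:99387149-99387944, 9 peaks), the CPT1C cluster, a copy of RPS9 (chr19:50222760-50223368, 6 peaks), and the PPA2 cluster in EEF1A1P9 (chr4:106406119-106406990, 6 peaks). Vector alone had 3 clusters with 4 peaks, namely the GGTA1P cluster in HMGB1P37 (chr9:124282506-124282607, 2 peaks), a peak in SNORD3C, a copy of the U3 small nucleolar RNA, near EPN2 (chr17:19093056-19093079), and a peak in MFSD1 (chr3:158512675-158512695). The wild-type list holds more peaks than the others, and its excess of own clusters cannot be told apart from its size.

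G325E alone had 22 clusters with 74 peaks, of which 13 clusters included repeat-annotated peaks and 9 consisted of them. The largest was the LRFN1 cluster (chr19:39811180-39811796), with 11 peaks in sequence of 83.5% GC, 9 of them annotated to a repeat, with 6 peaks within LRFN1, a synaptic adhesion protein gene, and 5 outside any gene. The IRS4 cluster (chrX:108297351-108297835, 9 peaks) and the LOC440117 cluster (chr12:127650498-127650986, 7 peaks) were annotated throughout to the large ribosomal RNA. Ribosomal RNA repeats accounted for 30 of the 57 repeat-annotated intergenic peaks, on 7 chromosomes, and low-complexity sequence for 16. Between the nearest listed peaks on either side of the IRS4 cluster, an interval far wider than the cluster itself, 7 peak numbers were skipped in vector and 11 in wild-type, and around the LOC440117 cluster 8 and 11. Whether the other libraries had footprints at the IRS4 and LOC440117 clusters therefore cannot be read from the lists. At the LRFN1 cluster 0 numbers were skipped in either other list. Where skipped numbers could be counted, 12 of 19 clusters of G325E alone had a skipped vector number there. For wild-type numbers it was 12 of 20. The 9 clusters of G325E with no repeat-annotated peak held 26 peaks. The largest of them, singled out after its values were seen, lay 1018 bp or more from the start of PAPD7, a poly(A) polymerase gene that GENCODE calls TENT4A (chr5:6713211-6713710). It had 7 peaks, all in a CpG island, and 0 numbers were skipped there in either other list.

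Intergenic peaks lay far from listed gene starts. The median distance was 40953 bp in vector (28232 to 52590), 30994 bp in wild-type (25149 to 51905) and 21776 bp in G325E (11260 to 24830), with 95% intervals from order statistics. Taking 1 value per cluster the medians were 25345, 24475 and 21362 bp. Without its repeat-annotated peaks the G325E median was 14419 bp. Under 5 kb lay 31 vector peaks (16.1%), 44 wild-type peaks (15.3%) and 56 G325E peaks (27.6%). Between 50 and 500 kb lay 88 (45.6%), 121 (42.2%) and 53 (26.1%), and over 500 kb 5, 7 and 1. The farthest was a wild-type peak 1002838 bp from B3GALT2, a galactosyltransferase gene. Peaks lay upstream of the nearest start in 115 vector cases (59.6%, 52.5 to 66.3), 170 wild-type cases (59.2%, 53.5 to 64.8) and 159 G325E cases (78.3%, 72.2 to 83.4). The label Intergenic leaves out listed genes, and the smallest distances were 1042, 1014 and 1005 bp, in that order. Under 5 kb, 31 of 31 vector, 44 of 44 wild-type and 51 of 56 G325E peaks lay upstream. The upstream share is therefore partly set by the label and by the share under 5 kb. The median to the nearest transcript start of GENCODE, which includes pseudogenes, was 267 bp (vector), 265 bp (wild-type) and 207 bp (G325E).

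**Figure D4:**
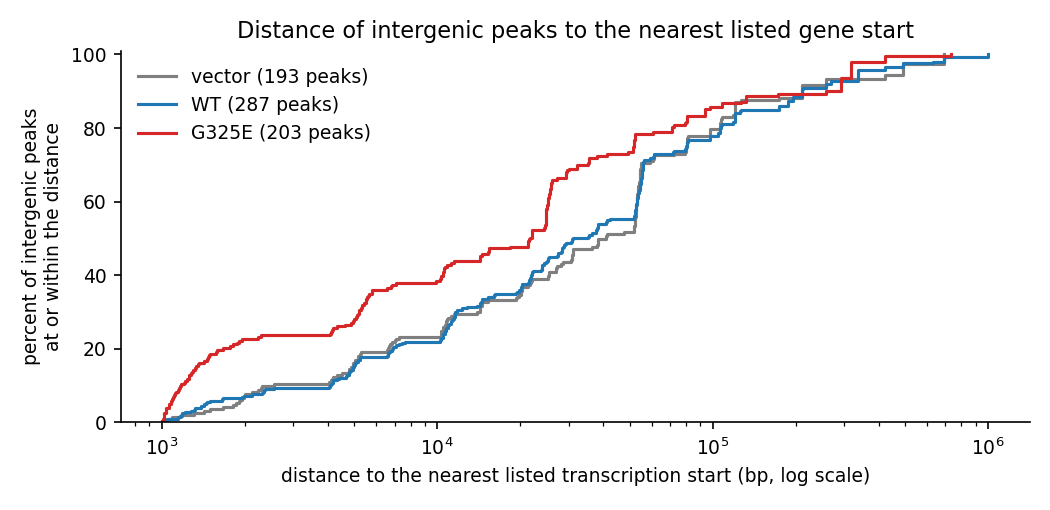
Cumulative percent of intergenic peaks (vertical axis) by their distance to the nearest listed transcription start (horizontal axis, bp, log scale), with a line for each list. The G325E line lies above the others over most of the range, with 27.6% of its peaks within 5 kb against 16.1% in vector and 15.3% in wild-type.

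Chromosome 1 held the most intergenic peaks in vector (43, 22.3%) and wild-type (50, 17.4%), against 11.5% and 10.5% of all peaks, and the OR4F3 cluster accounted for 36 and 42 of them. In G325E chromosome 1 held 11 (5.42%) and chromosome 10 the most, with 24 (11.8%, against 3.4% of all its peaks), of which 12 were in the ZRANB1 cluster and 10 in the BEND7 cluster. Chromosome X held 21, 18 and 16. Chromosome 20 had 0 intergenic peaks in each list, although it carried 308, 559 and 467 peaks in all.

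**Figure D5:**
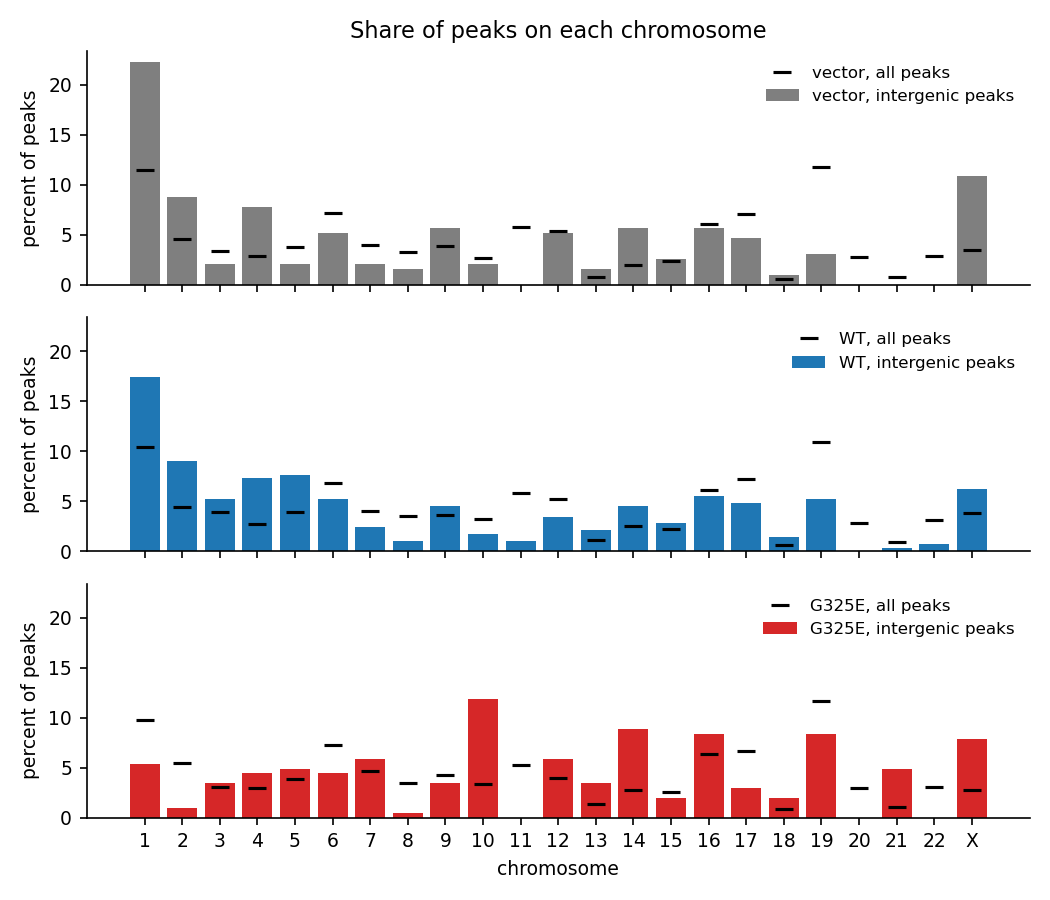
Percent of a list's peaks on each chromosome (vertical axis), as bars for intergenic peaks and as black ticks for all peaks of the list. The bars stand far above the ticks on chromosome 1 in vector (22.3% against 11.5%) and on chromosome 10 in G325E (11.8% against 3.4%).

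The nearest listed genes of vector numbered 55, those of wild-type 86 and those of G325E 58, with 113 in any list and 27 in all 3. Of the vector genes 50 (90.9%) were also nearest genes in wild-type, which is 58.1% of the wild-type genes. The G325E genes shared 29 of 58 with vector and 34 (58.6%) with wild-type. OR4F3 had the most peaks in vector (36) and wild-type (42), and ZRANB1 in G325E (12). A peak of another region class in the same list was present for 8 of the 55 nearest genes in vector, 17 of 86 in wild-type and 16 of 58 in G325E. The matching shares over all genes of the lists were not computed, so these gene counts have no background beside them. DDX3X was the nearest gene of 0 intergenic peaks.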

How the data were processed

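The deposited lists give peak positions (base pairs, hg19 per the labels), strand, HOMER-style region and other annotation columns, and no counts. As the study describes, the authors trimmed adapters, aligned reads with BWA (version 0.5.5 per the submitters' processing notes), removed duplicates, called peaks in each sample from base coverage and refined them. The study describes the reads as uniquely mapped, and how a read from near-identical copies was placed was not examined here. No authors' comparisons and 0 columns of other samples were present.

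Here, peaks of no length were taken as 1 base, and the deposited sign of the distance, which follows the peak's strand (0 exceptions in 12192 exon peaks), was turned to the gene's. Peaks were joined within 1 kb. Exact copies on both strands were searched for peaks of at least 20 bp, and cluster spans were compared with GENCODE release 44 transcripts by BLAST 2.17.0. A match needed 85% identity and 50% of the span or 300 bases, limits chosen after the data were seen. Python 3.11.15 with numpy 2.4.6, pandas 2.3.3, scipy 1.17.1, numba 0.67.0, pysam 0.24.0 and matplotlib 3.10.9 was used, and the overlap, cluster, interval and copy routines were tested on simulated data.

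Named were the 8 clusters with the most peaks, the 10 longest regions in all 3 lists, the 3 largest clusters of each list alone, the top nearest gene per list and DDX3X. Others are named as members of the groups counted or as chosen after their values were seen. Members and lists were chosen with earlier results of these data known. No tests were run, since each construct had 1 library. A floor of 3 peaks came to 0.0267% for vector, 0.0151% for wild-type and 0.0191% for G325E of all peaks in the list.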

Additional observations from a re-analysis of the deposited data

How the results depend on the processing

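Of 106 values under alternatives, 73 stayed within the interval of the value reported (clusters: within 1.5 times). Merging neighbouring peaks within 100 bp gave intergenic shares of 2.00% for vector, 1.72% for wild-type and 1.70% for G325E, and taking equal numbers of the longest peaks gave 1.71% in wild-type. Counting only peaks outside GENCODE genes gave 0.160%, 0.136% and 0.300%, and differences of 0.164 points (G325E minus wild-type) and 0.139 points (G325E minus vector), both turned in sign. The G325E count there, 47 peaks, included 19 annotated to a repeat, which the other lists lacked. Leaving out repeat-annotated peaks, an alternative added after the data were seen, gave 0.949% in G325E, differences of −0.492 points from wild-type and −0.772 points from vector, and overlaps of G325E with vector of 44.5% and with wild-type of 47.3%. With midpoints within 100 bp as the measure of sharing, 88.1% of vector peaks were shared with wild-type and 42.0% with G325E, 61.0% of wild-type peaks with vector and 32.4% with G325E, and 39.4% of G325E peaks with vector and 46.8% with wild-type. Joining within 100 bp gave 201 clusters. With 1 distance per cluster the medians were 25345 bp in vector, 24475 bp in wild-type and 21362 bp in G325E, and to GENCODE transcript starts 267, 265 and 207 bp. On the same strand 83.3% of wild-type and 60.6% of G325E peaks lay in a GENCODE gene, and 13.0%, 11.8% and 34.5% of vector, wild-type and G325E peaks lay in a protein-coding gene. In a wider window around the midpoint the mean GC content was 53.5% in wild-type and 68.6% in G325E. The cause of these changes was not tested beyond what each alternative leaves out. No paired analysis was possible because each construct had 1 library, and for the same reason no library could be left out. Library size, which was not adjusted for, read placement among near-identical copies and the content of the skipped peak numbers limit the comparisons between lists.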

Other observations

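Intergenic peaks in small RNA genes were few. The U3 small nucleolar RNA copies SNORD3B-1 and SNORD3C took 2 vector and 2 wild-type peaks, and 0 of 203 peaks in G325E. For that 0 the floor of 3 peaks is 1.48%, and the upper end of the Wilson interval is 1.86%. The 3 peaks in SNORD3B-1 lay on its opposite strand. The SNORD3C peak occurred exactly at 5 places in the genome. RN7SL2, for the 7SL RNA of the signal recognition particle, took 1 G325E peak. RN7SKP203, named as a pseudogene of the 7SK RNA of a transcription regulator, took 1 as well. MicroRNA genes overlapped 4 G325E peaks (1.97%) and 0 in vector and wild-type, and those 4 were grouped under other kinds of gene. Among groups of nearest genes, uncharacterised LOC genes were nearest to 4 vector, 22 wild-type and 11 G325E peaks, histone genes to 2, 3 and 0, zinc finger genes to 3, 5 and 2, and heat shock genes to 5, 4 and 0, all at HSP90AB2P. The microRNA gene MIR3687 was nearest to 5 G325E peaks, all annotated to the small ribosomal RNA on chromosome 21. A nearest gene of 1 cluster on chromosome 7, between ZNF713 and its neighbour, is written as a calendar date in the lists, as spreadsheet software rewrites the symbols of septin genes.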
